A study of Mus musculus with 6 samples.

Results

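The 10 genes described here encode 9 lysosomal proteases, the cathepsins Ctsl, Ctsa, Ctsb, Ctsc, Ctsd, Ctsh, Ctsk, Ctss and Ctsz, and the secreted inhibitor cystatin C, Cst3. They were taken by gene symbol from the 54551 genes in the deposited tables, and each symbol matched 1 gene. RNA came from granulosa cells of C57BL/6 ovaries on postnatal day 21, with 3 libraries labelled wild type and 3 labelled Gm12840-/-. All 6 libraries share the hormone schedule, 5 IU of PMSG for 48 h to grow follicles and then 5 IU of hCG for 6 h in place of the ovulatory LH surge. Which part of the long noncoding RNA gene Gm12840 was removed, and whether animals were pooled, is not given in the sources used here, and nothing says that the libraries are separate animals, so p-values measure the spread between these samples, which may be technical. Below, values follow replicates 1 to 3 of the wild type label and then replicates 1 to 3 of the Gm12840-/- label.

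Cathepsins are made as inactive precursors, tagged with mannose 6-phosphate, carried to acidic endosomes and lysosomes, and activated there by cleavage. Some are also secreted and cut matrix outside the cell, where cystatin C, a small secreted protein, blocks the cysteine cathepsins by filling their active site. In the mouse ovary, Ctsl is known as a gene that the LH surge induces in granulosa cells of ovulatory follicles through the progesterone receptor, Pgr.

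All 10 are protein-coding genes, placed here by their mm10 coordinates in the deposited tables. The tables put Ctsl (ENSMUSG00000021477) at chr13:64359337-64370890 on the minus strand, Cst3 (ENSMUSG00000027447) at chr2:148871722-148875692 on the minus strand, Ctsd (ENSMUSG00000007891) at chr7:142375911-142388038 on the minus strand and Ctsz (ENSMUSG00000016256) at chr2:174427493-174439039 on the minus strand. They put Ctsb (ENSMUSG00000021939) at chr14:63122462-63145923 on the plus strand, Ctsa (ENSMUSG00000017760) at chr2:164832873-164841032 on the plus strand, Ctsc (ENSMUSG00000030560) at chr7:88278085-88310888 on the plus strand and Ctsh (ENSMUSG00000032359) at chr9:90054152-90076089 on the plus strand. The remaining genes, Ctsk (ENSMUSG00000028111) and Ctss (ENSMUSG00000038642), are neighbours on chromosome 3.

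The libraries held 16392098 to 19465847 recovered reads. Gm12840 itself had 5 to 17 reads under the wild type label and 5 to 14 under the Gm12840-/- label, so it was not lower under the knockout label, and the groups are called by their labels throughout. Granulosa markers were present in every library, with Inha, the inhibin alpha subunit, at 3973 to 10808 FPKM (a read count scaled by gene length and by the size of the library), Foxl2 at 26.2 to 48.5 and Fshr at 20.6 to 26.5 FPKM. Libraries of the same label differed widely: genes of the mitochondrial chromosome took 0.227%, 0.311% and 2.08% of reads under the wild type label and 1.52%, 4.19% and 0.146% under the Gm12840-/- label. The first principal component of all tested genes held 83.3% of the variance and set wild type 1, wild type 2 and Gm12840-/- 3 apart from wild type 3 and Gm12840-/- 1 and 2.

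Ctsl, an endopeptidase of the papain family that cuts matrix proteins and other substrates, was the most abundant of the 10 genes. It stood at 676, 820 and 923 FPKM under the wild type label and at 851, 830 and 591 FPKM under the Gm12840-/- label. The highest and the lowest value thus both came from a replicate 3, and the groups overlapped. Its mean of 782 FPKM was rank 49 of the 12495 genes that reached more than 1 FPKM in 3 or more libraries, the genes called tested below. Ctsl took 0.347% to 0.672% of all reads, or 59066 to 130721 reads a library, so counting error was small beside the 1.56-fold range between libraries. That range was 0.64 on the log2(FPKM + 1) scale, where the median tested gene had 0.97.

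Cst3, Ctsd and Ctsz were abundant and varied far more than Ctsl. Cst3, the cystatin C gene, stood at 754, 429 and 193 FPKM under the wild type label and at 326, 159 and 712 FPKM under the Gm12840-/- label. Ctsd, the aspartic protease of the group and an activator of other lysosomal enzymes, stood at 517, 297 and 111 against 168, 93.2 and 538 FPKM. Ctsz, a carboxypeptidase also called cathepsin X, stood at 367, 255 and 135 against 170, 88.4 and 360 FPKM. In each of these genes the libraries labelled wild type 1 and Gm12840-/- 3 were the highest pair and Gm12840-/- 2 was the lowest, so the spread lay within both labels and the groups overlapped. The highest library exceeded the lowest by 4.74-fold in Cst3, 5.78-fold in Ctsd and 4.16-fold in Ctsz. On the log2(FPKM + 1) scale these ranges were larger than those of 93.6%, 96.2% and 90.9% of the tested genes, and they rest on at least 2328 reads per library and gene.

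**Figure D1:**
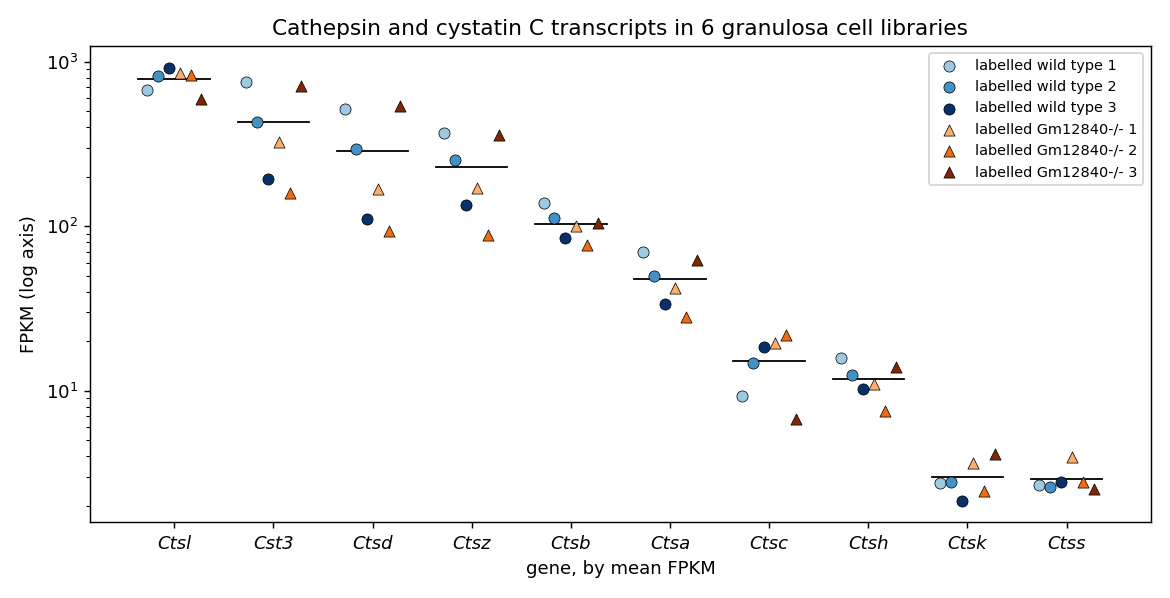
FPKM of the 10 genes (log axis) in each of the 6 libraries, genes ordered by mean FPKM; circles are the libraries labelled wild type, triangles those labelled Gm12840-/-, and lines the mean of 6. Ctsl sits between 591 and 923 FPKM, Cst3, Ctsd and Ctsz spread over a wider range with wild type 1 and Gm12840-/- 3 on top, and Ctsk and Ctss lie between 2.15 and 4.12 FPKM.

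Ctsc ran the other way. It encodes dipeptidyl peptidase I, which removes dipeptides from protein ends and activates granule proteases of immune cells. Ctsc stood at 9.29, 14.7 and 18.5 FPKM under the wild type label and at 19.6, 21.7 and 6.71 FPKM under the Gm12840-/- label. The libraries labelled wild type 1 and Gm12840-/- 3, highest for Cst3, Ctsd and Ctsz, were the lowest pair for Ctsc and for Ctsl, and these were the 2 of 10 genes with that pair lowest. Its 3.23-fold range rests on 600 to 2339 reads.

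Ctsb, Ctsa and Ctsh followed Cst3 with smaller ranges. Ctsb, an endopeptidase that also trims dipeptides from the carboxyl end, stood at 138, 113 and 84.5 FPKM under the wild type label and at 100.1, 77.2 and 105 FPKM under the Gm12840-/- label. Ctsa, a serine carboxypeptidase that also protects beta-galactosidase (Glb1) and neuraminidase (Neu1) in the lysosome, ran from 28.2 to 69.8 FPKM. Ctsh, mainly an aminopeptidase, ran from 7.59 to 15.7 FPKM. All 3 were lowest in Gm12840-/- 2 and highest in wild type 1, and Ctsb differed from the other two in that its second highest library was wild type 2 and not Gm12840-/- 3. The partners of Ctsa, named for that link and after their values were seen, were at 15.2 to 29.3 FPKM (Glb1) and 9.73 to 13.5 FPKM (Neu1).

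In all, Cst3, Ctsd, Ctsz, Ctsa and Ctsh had the libraries labelled wild type 1 and Gm12840-/- 3 as their highest pair, and 6 of 10 genes, with Ctsb, were lowest in Gm12840-/- 2. Several features of whole libraries moved with this order. Mitochondrial reads, given above, were lowest in Gm12840-/- 3 and wild type 1 and highest in Gm12840-/- 2. Cytosolic ribosomal protein genes took 13.3%, 9.66% and 4.56% of reads under the wild type label and 6.18%, 3.65% and 12.4% under the Gm12840-/- label. The slope of log2(FPKM + 1) on log2 gene length was -0.260, -0.213 and -0.0230 against -0.0898, 0.0658 and -0.251. Hemoglobin genes and Alas2, 5 markers of red blood cell precursors, summed to 4455, 2793 and 613 FPKM under the wild type label and to 756, 473 and 3512 FPKM under the Gm12840-/- label, with none of the 5 at 0, and 4 of the 5 had a Pearson r over 0.9 with Cst3. The 14 leukocyte markers summed to 109, 115 and 62.2 FPKM under the wild type label and to 108, 59.3 and 122 FPKM under the Gm12840-/- label, and 3 of the 10 tested had an r over 0.9. The 7 oocyte markers summed to 246 to 443 FPKM and 221 to 383 FPKM, with 2 of 7 at an r over 0.9, while Bmp15 was highest in Gm12840-/- 2 at 24.4 FPKM and lowest in Gm12840-/- 3 at 2.97 FPKM. Of the 12494 tested genes other than Cst3, 2897 (23.2%) had an r over 0.9 with Cst3 and 2498 had an r under -0.9. Of the other 9 genes described here, 5 were over 0.9 and 0 were under -0.9. An order opposite to that of Cst3 was thus common among the tested genes and not particular to Ctsl and Ctsc. The part of these features and cells in the values of the 10 genes was not tested. The deposited lengths were 1266 nt for Cst3, 1441 for Ctsz, 2351 for Ctsd, 4499 for Ctsh, 4715 for Ctsa and 6051 nt for Ctsb. They were 5808 nt for Ctsc and 6489 nt for Ctsl, the pair with the opposite order. Ctsk and Ctss, which followed neither order, had 1512 and 1358 nt. The principal transcripts had 1971 nt for Ctsl and 2493 nt for Ctsc. Those of the genes that followed Cst3 ran from 1441 nt (Ctsz) to 4743 nt (Ctsb), with Ctsa at 3646 nt, and that of Cst3 had 860 nt. The part of length in these orders was not tested. The fit with the length slope given further on adjusts the label comparison for a value per library and does not test it.

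**Figure D2:**
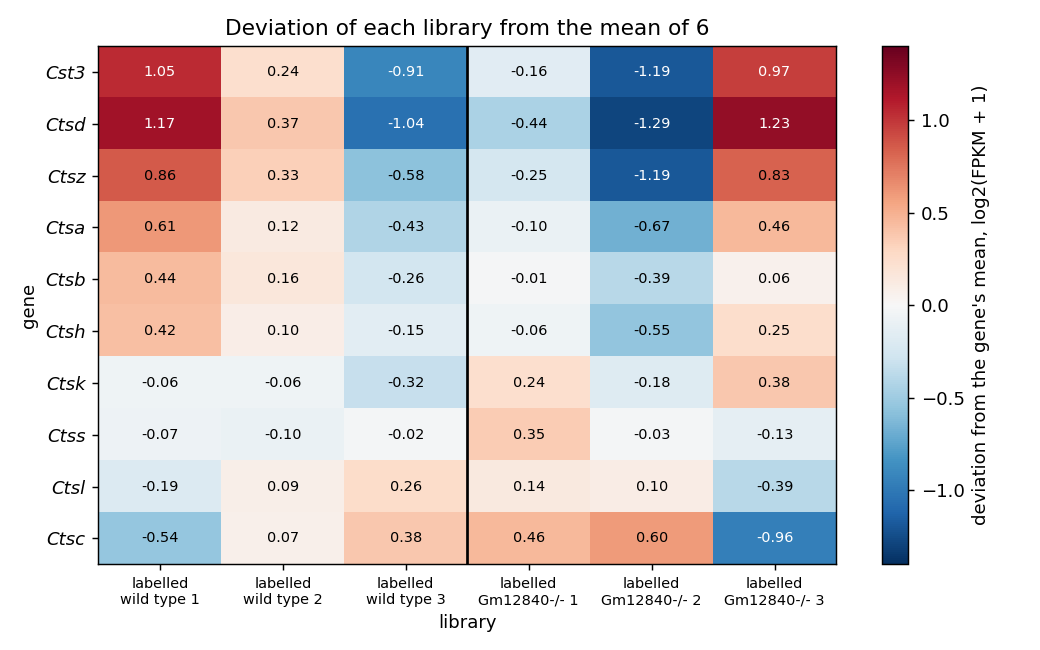
Deviation of each library (columns) from the mean of 6 libraries for each gene (rows), in log2(FPKM + 1). Cst3, Ctsd and Ctsz run from 1.23 to -1.29 with wild type 1 and Gm12840-/- 3 above the mean, and Ctsl and Ctsc have the opposite sign in those libraries.

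The promoters of 2 genes from each side of this contrast are shown because they let the reader compare the regulatory sequence of genes that ran in opposite order. The windows cover 250 bases before to 50 bases after the RefSeq start (RefSeq, GRCm38.p6, the assembly also called mm10), 5′ to 3′ on the gene's strand. Capitals mark the GC box GGGCGG, a motif of SP1-type factors, or its reverse complement CCGCCC, and the E-box CACGTG, the core of the motif that TFEB-type factors bind in lysosomal genes. These motifs do not overlap each other in the windows shown. The Ctsl window is chr13:64370471-64370770 on the minus strand, Ctsc chr7:88277835-88278134 on the plus strand, Cst3 chr2:148875463-148875762 on the minus strand and Ctsd chr7:142387778-142388077 on the minus strand.
Ctsl: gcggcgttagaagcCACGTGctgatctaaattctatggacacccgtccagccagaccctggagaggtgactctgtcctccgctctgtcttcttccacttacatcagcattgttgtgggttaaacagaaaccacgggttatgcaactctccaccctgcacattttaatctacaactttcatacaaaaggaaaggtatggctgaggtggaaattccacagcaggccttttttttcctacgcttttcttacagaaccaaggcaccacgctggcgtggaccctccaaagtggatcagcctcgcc
Ctsc: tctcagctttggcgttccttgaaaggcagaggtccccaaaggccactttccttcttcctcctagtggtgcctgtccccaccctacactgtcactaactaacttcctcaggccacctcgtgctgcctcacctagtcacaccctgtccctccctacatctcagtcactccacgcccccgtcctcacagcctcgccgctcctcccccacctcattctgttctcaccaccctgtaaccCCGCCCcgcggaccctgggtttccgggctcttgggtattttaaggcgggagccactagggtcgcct
Cst3: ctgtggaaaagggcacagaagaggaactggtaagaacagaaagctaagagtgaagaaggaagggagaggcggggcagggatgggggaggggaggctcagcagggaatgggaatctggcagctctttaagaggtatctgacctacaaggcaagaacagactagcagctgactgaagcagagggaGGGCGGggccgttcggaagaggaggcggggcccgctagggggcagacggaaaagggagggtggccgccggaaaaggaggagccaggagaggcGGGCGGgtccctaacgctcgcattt
Ctsd: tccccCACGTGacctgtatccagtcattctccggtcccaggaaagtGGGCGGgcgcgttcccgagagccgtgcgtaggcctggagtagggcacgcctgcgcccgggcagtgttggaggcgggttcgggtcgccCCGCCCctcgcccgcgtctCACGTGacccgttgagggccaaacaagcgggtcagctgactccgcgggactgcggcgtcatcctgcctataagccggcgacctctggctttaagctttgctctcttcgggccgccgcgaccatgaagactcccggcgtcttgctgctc

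In these letters Ctsl had 1 E-box, starting at base -236 from the start, and no GC box. Ctsc had 1 GC box at -16, Cst3 had 2 at -67 and 26, and Ctsd had 2 GC boxes at -204 and -117 with 2 E-boxes at -245 and -98. RefSeq windows were found for 8 of the 10 genes, 9 windows in all since Ctsa has 2 starts; Ctsb and Ctsh were not matched. Counting these, 5 of the 9 windows held a GC box and 3 an E-box, where 35.7% and 7.15% of all 32851 windows of this length did. Beside Ctsl and Ctsd, the window of the second Ctsa start held E-boxes, at -12 and 6. The longer motif of TFEB-type factors around this core, called CLEAR, stood in 0 of the 9 windows and in 0.326% of all windows. It is so rare that its absence from 9 windows does not set them apart from the rest. TATAAA was found in the window of Ctss and CCAAT in that of Ctsz, against 13.6% and 37.4% of all windows (both strands for each motif). The RefSeq start of Ctsl lies 214 nt upstream of the 5′ end of its principal transcript Ctsl-201, and its window does not reach that end. The RefSeq start of Ctsd, at 142387827 on the minus strand, lies inside its principal transcript Ctsd-202, whose 5′ end is at 142388038. Both GC boxes of Ctsd thus lie within the span of that transcript. In the windows shown, GC boxes stood in Ctsc as in Cst3 and Ctsd, and an E-box in Ctsl as in Ctsd. The windows are not placed alike against the principal transcripts, and the part of these motifs in the contrast was not tested.

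Ctsk and Ctss were low and did not follow either order. They lie side by side on the plus strand of chromosome 3, Ctsk from 95499256 to 95509362 and Ctss from 95526786 to 95556403 (mm10), 17423 bp apart with 0 annotated genes between them. Ctsk, a collagen-cutting protease known from osteoclasts, stood at 2.76, 2.78 and 2.15 FPKM under the wild type label and at 3.64, 2.46 and 4.12 FPKM under the Gm12840-/- label. Ctss, known from antigen-presenting cells where it trims the invariant chain, stood at 2.68, 2.61 and 2.80 against 3.94, 2.78 and 2.54 FPKM. The groups overlapped in both genes, and the highest library was Gm12840-/- 3 for Ctsk and Gm12840-/- 1 for Ctss. These values rest on 53 to 103 reads per library. For Ctss in Gm12840-/- 1 the exact 95% Poisson interval was 3.20 to 4.79 FPKM, and in Gm12840-/- 3 it was 1.90 to 3.32 FPKM. Such intervals cover counting error only, and reads without molecular identifiers are not independent molecules. In bulk RNA, fewer cells of a type and less RNA per cell cannot be told apart.

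Markers of leukocytes and stroma were measured beside Ctsk and Ctss. The leukocyte sums are given above. Lyz2, a lysozyme of myeloid cells, was at 22.3 to 39.8 FPKM and Cd68 at 4.42 to 7.27 FPKM, while Ptprc, the pan-leukocyte CD45 gene, did not exceed 0.0747 FPKM. A second annotated gene named Itgam was listed at 0 in all 6 libraries. The 11 stromal markers summed to 61.2 to 117 FPKM against 89.2 to 113 FPKM. The 5 theca markers summed to 22.8 to 58.4 FPKM against 35.4 to 40.5 FPKM and the 6 endothelial markers to 6.60 to 15.5 FPKM against 12.9 to 18.7 FPKM. The labels did not overlap in 2 of 8 tested stromal markers, Col1a2 and Pdgfrb, and in 1 of 5 tested endothelial markers, Eng. They did not overlap in 3.53% of all tested genes. Myh11, a stromal marker too low to be tested, did not overlap either, and these genes were all higher under the Gm12840-/- label. All 8 tested stromal, 4 theca and 5 endothelial markers had positive log2 fold changes, where 45.0% of all tested genes did. Of the tested leukocyte markers 6 were positive and 4 negative, and 0 markers of these lists were called. The part of all these cells in Ctsk and Ctss was not tested.

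By mean FPKM the order was Ctsl, Cst3, Ctsd, Ctsz, Ctsb, Ctsa, Ctsc, Ctsh, Ctsk and Ctss. Of the 9 pairs of neighbours in this order, 5 kept it in 6 of 6 libraries. Ctsl was above Cst3 in 4 of 6 libraries, Ctsd above Ctsz in 4, Ctsc above Ctsh in 4 and Ctsk above Ctss in 3. The order of these neighbours was thus not the same in every library. The first 5 genes ranked between 49 and 608 by mean FPKM among the 12495 tested genes, Ctsa at 1350, Ctsc at 3567, Ctsh at 4276, and Ctsk and Ctss at 8906 and 9019. Levels per length depend on the length used. The deposited length of Ctsl, 6489 nt, joins the exons of 7 annotated transcripts at chr13:64359337-64370890, while its best supported principal transcript, Ctsl-201, has 8 exons and 1971 nt at chr13:64363214-64370306. With the principal transcript of each gene in place of the deposited length, a choice made after the data were seen, Ctsl rose 3.29-fold to a mean of 2574 FPKM and lay above Cst3 (632 FPKM) in 6 of 6 libraries. Ctsh rose 2.78-fold to 32.9 FPKM and Ctsc 2.33-fold to 35.1 FPKM, and 0 of 10 genes changed position in the order. Which of these transcripts the cells made is not measured here.

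**Figure D3:**
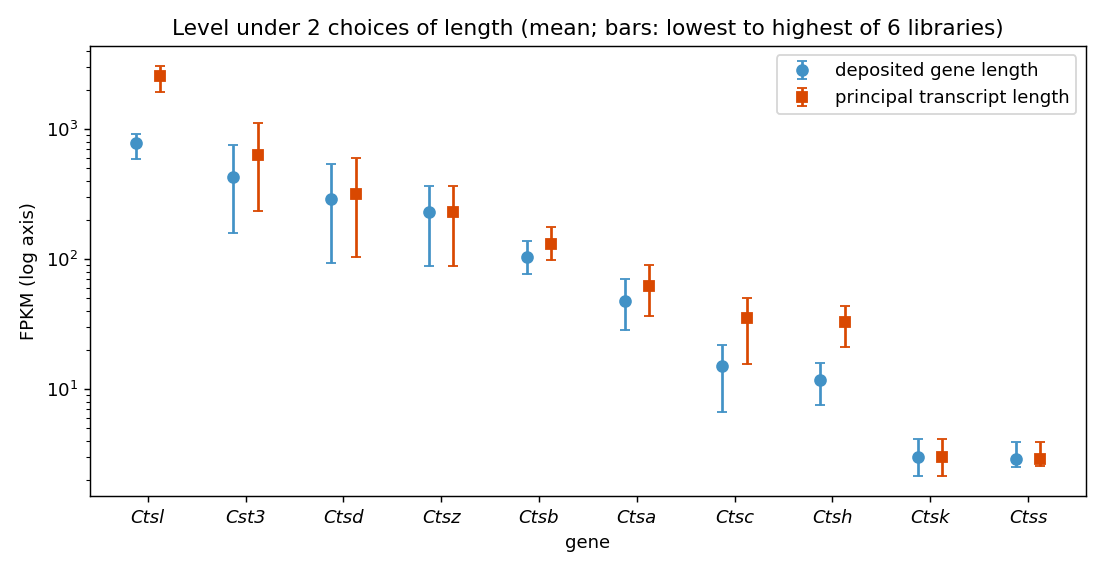
Mean FPKM of each gene over 6 libraries (log axis) with the deposited gene length (circles) and with the length of the principal GENCODE transcript (squares); bars run from the lowest to the highest library. Ctsl lies at 782 FPKM with the deposited length and at 2574 with the transcript length, Ctsk and Ctsz are the same with both.

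Reads of neighbours could enter some of these values, because the TruSeq RNA kit named in the labels does not mark strand. Ctsb overlaps the 3′ end of Fdft1, a squalene synthase gene on the opposite strand, by 774 nt, and Fdft1 stood at 37.2 to 74.0 FPKM. Ctsz overlaps Nelfcd by 10 nt and Ctsa overlaps Neurl2 and Pltp by 584 and 1515 nt, with those neighbours of Ctsa at or under 3.65 FPKM. The antisense gene Gm47123 inside Ctsl was listed at 0 in every library, as was AC034099.1, a gene annotated on the strand of Ctsd that overlaps it by 6757 bp. The pseudogene Hmgb1-ps5 inside Ctss had at most 10 reads and Gm26522 inside Ctsc at most 6.

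The share of Ctsl and the ratio of Cst3 differed more between libraries than between labels. Ctsl made up 37.6%, 52.3% and 69.9% of the summed FPKM of the 9 cathepsins under the wild type label, and 62.1%, 72.1% and 35.1% under the Gm12840-/- label. The group means were 53.3 ± 16.2% and 56.4 ± 19.1% (SD, n = 3 each). Cst3, per summed FPKM of the 7 cysteine cathepsins it can inhibit (all but Ctsa and Ctsd), was 0.623, 0.352 and 0.164 against 0.282, 0.154 and 0.657. Its means were 0.379 ± 0.230 and 0.364 ± 0.261 (SD, n = 3 each). With the deposited lengths the summed cysteine cathepsins were 1212, 1220 and 1177 against 1159, 1030 and 1084 FPKM. The labels did not overlap in this sum, with means of 1203 ± 23.2 and 1091 ± 64.7 (SD, n = 3 each). They overlapped with principal transcript lengths, at 2840 to 3359 against 2502 to 3183 FPKM. In recovered reads per nt of deposited length, unscaled for depth, they overlapped at 18.0 to 25.7 against 16.7 to 21.7. The sum of all 9 cathepsins overlapped with the deposited lengths. It did not with principal transcript lengths, at 3501 to 3566 against 3136 to 3424 FPKM. With principal transcript lengths Ctsl made up 75.2% and 76.7% of the cathepsins on average, and the ratio of Cst3 was 0.225 and 0.216. No test is given for these sums, since their members were chosen with results known.

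**Figure D4:**
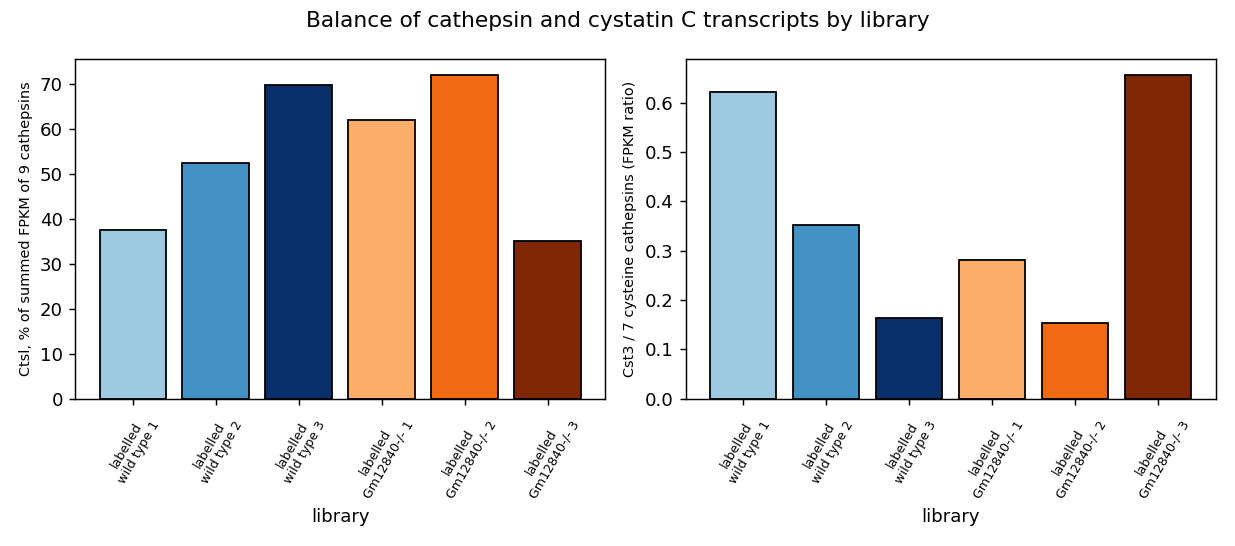
Left, Ctsl as a percentage of the summed FPKM of the 9 cathepsins in each library; right, Cst3 FPKM divided by the summed FPKM of the 7 cysteine cathepsins. Gm12840-/- 3 and wild type 1 have the lowest Ctsl shares, 35.1% and 37.6%, and the highest Cst3 ratios, 0.657 and 0.623.

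The design's comparison set the libraries labelled Gm12840-/- against those labelled wild type. None of the 9 cathepsins passed the test, and neither did Cst3. Group means were 806 ± 124 and 757 ± 144 FPKM for Ctsl under the wild type and the Gm12840-/- label, 459 ± 282 and 399 ± 284 for Cst3, and 308 ± 203 and 267 ± 238 for Ctsd (SD, n = 3 each). They were 252 ± 116 and 206 ± 139 FPKM for Ctsz, 112 ± 26.7 and 94.2 ± 14.9 for Ctsb, and 51.0 ± 18.1 and 44.5 ± 17.4 for Ctsa. They were 14.2 ± 4.61 and 16.0 ± 8.11 FPKM for Ctsc, 12.8 ± 2.73 and 10.8 ± 3.15 for Ctsh, 2.56 ± 0.357 and 3.41 ± 0.856 for Ctsk, and 2.70 ± 0.0947 and 3.08 ± 0.749 for Ctss. In each of the 10 genes the means differed by less than the larger of the group SDs, and Ctsk came closest to it.

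limma, fitted to log2(FPKM + 1) of the 12495 tested genes, called 0 of the 10 at an adjusted p under 0.05, where it called 0% of all tested genes. At an unadjusted p under 0.05 it also gave 0 of the 10, where 91 genes (0.728%) reached that level, and limma-voom on the recovered reads called 0 genes with 72 at that level, 0 of them among the 10. The labelled groups overlapped in all 10 genes, and did not overlap in 3.53% of tested genes. Log2 fold changes were negative in 7 and positive in 3 (Ctsc, Ctsk and Ctss), with a median of -0.22 beside -0.04 over all tested genes. For Ctsl the log2 fold change was -0.10 with a standard error of 0.39 and a 95% interval of -1.04 to 0.84 (limma, adjusted p = 0.993). For Cst3 it was -0.25 with an interval of -1.97 to 1.46, for Ctsd -0.33 with -2.26 to 1.59, and for Ctsk, the smallest unadjusted p of the 10 at 0.233, 0.29 with -0.24 to 0.83. The intervals hold a 2-fold difference in either direction for Cst3, Ctsd, Ctsz and Ctsc. Those of Ctsl and Ctsa (-1.16 to 0.75) hold a 2-fold decrease. Differences of that size therefore remain possible in these genes. For low genes a 2-fold difference in FPKM is less than 1 unit on the log2(FPKM + 1) scale. The intervals of Ctsk and Ctsh (-0.91 to 0.43) are therefore not read as excluding a 2-fold difference. With replicate 3 of both labels left out, limma called Ctsd (-1.64, adjusted p = 0.0305) and Ctsz (-1.31, adjusted p = 0.0459) among 3451 genes, 27.6% of those tested. The 4 libraries then left differ by label as they do by the first principal component, so label and component cannot be told apart. With the length slope of each of the 6 libraries as a covariate limma called 1 gene (0.008%) and 0 of the 10, and the uncalled values of Ctsa, Ctsc, Ctsd, Ctsz and Cst3 turned their sign.

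**Figure D5:**
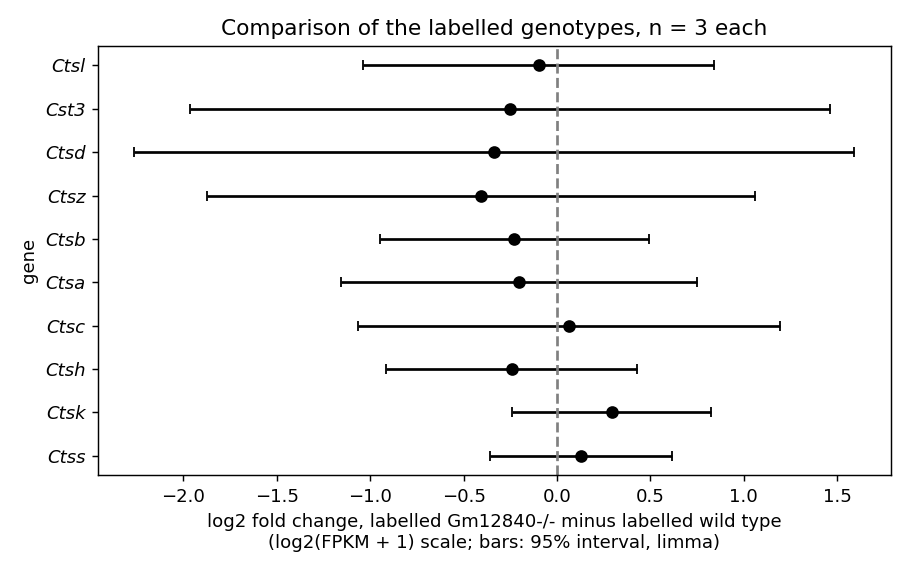
Log2 fold change of each gene, libraries labelled Gm12840-/- minus those labelled wild type, on the log2(FPKM + 1) scale, with 95% intervals from limma. Each interval includes 0, and those of Ctsd and Cst3 are the widest.

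Other cathepsins and cystatins were mostly silent, with a few exceptions. Of 14 further cathepsins 2 were tested, Ctsf at 22.3 to 92.1 FPKM and Ctso at 1.82 to 3.05 FPKM, both papain-family members. The other 12 stayed at or under 0.533 FPKM, and 8 of them had 0 reads in each library, which allows up to 3 reads per library. Among the 12 are 9 genes in a cluster on the chromosome of Ctsl (chr13:60798250-61570127), most of them known from placenta, which held 3 reads in all libraries together. Of 14 further genes of the cystatin superfamily 5 were tested, and 0 were called. The log2 fold changes of these 5 were all negative, where 45.0% of all tested genes were positive. Fetub, a fetuin known to keep the egg coat penetrable before fertilization, ran from 52.3 to 207 FPKM, Ahsg, another fetuin, from 3.30 to 11.1, and Cstb, the intracellular cystatin B, from 68.6 to 96.9 FPKM. Cstb was chosen after its values were seen.

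Of the cystatin genes near Cst3 on chromosome 2, Cst8 and Cst12 were the abundant ones. Cst8, a cystatin-related gene known from testis and epididymis, lies 66126 bp from Cst3 and stood at 232, 68.0 and 32.3 FPKM under the wild type label and at 43.6, 23.8 and 108 FPKM under the Gm12840-/- label. Cst12, 78175 bp away, stood at 66.7, 28.5 and 13.6 against 19.1, 12.5 and 33.2 FPKM. In both, as in Cst3, wild type 1 and Gm12840-/- 3 were the highest and Gm12840-/- 2 the lowest. Cst9 and Cst13, which lie closer to Cst3 at 32983 and 41311 bp, did not exceed 2.08 and 0.430 FPKM, and Cst13 was listed at 0 in Gm12840-/- 3. Cst8, Cst12, Cst13 and Cst9 were chosen after their values were seen.

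Lysosomal genes around the cathepsins were taken from 5 lists: peptidases, sugar and lipid hydrolases, membrane proteins, mannose 6-phosphate sorting and the V-ATPase proton pump. Of their 76 genes 74 were tested, limma called 0, with 0 at an unadjusted p under 0.05, and 31 were positive and 43 negative with a median log2 fold change of -0.05. The labelled groups did not overlap in 1 of the 74 (1.35%), Atp6v0a1, a pump subunit at 9.14 to 9.34 FPKM under the wild type label and 10.1 to 10.9 FPKM under the Gm12840-/- label, with an unadjusted p of 0.416 in limma. Lgmn, the asparaginyl peptidase that processes cathepsins, stood at 160 ± 61.7 FPKM under the wild type label and 108 ± 38.9 under the Gm12840-/- label (SD, n = 3 each). Psap, the saposin precursor, ran from 546 to 832 FPKM, Laptm4a from 214 to 291, Naglu from 28.9 to 63.7, M6pr, a mannose 6-phosphate receptor, from 42.1 to 59.7, and Atp6v1g1 from 63.5 to 183 FPKM. Lower members were Cln3 at 4.51 to 6.43 FPKM, Gnptg at 5.35 to 9.58 and Atp6v1c1 at 0.986 to 4.21 FPKM.

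Regulators and targets linked to these genes gave no call either in the fit of all 6 libraries. Of the 10 genes of the TFEB family and its regulators 8 were tested, with Lamtor1 at 13.4 to 32.1 FPKM and Fnip1 at 0.830 to 6.94 FPKM, and of 13 autophagy genes 13 were tested, with Sqstm1, the p62 receptor, at 216 to 330 and Atg16l1 at 5.67 to 9.39 FPKM. The tested TFEB genes were 5 positive and 3 negative, and the autophagy genes 3 positive and 10 negative. Of Pgr and 8 ovulatory genes downstream of it 9 were tested, 4 positive and 5 negative with a median of -0.08. The labels did not overlap in 1 of the 9, against 3.53% of all tested genes. This was Adcyap1, at 30.2 to 40.6 FPKM under the wild type label and 18.4 to 29.0 under the Gm12840-/- label (limma, unadjusted p = 0.124). Adamts1, a secreted protease that the LH surge induces through Pgr as it does Ctsl, stood at 33.8, 60.9 and 147 FPKM under the wild type label and at 138, 210 and 47.8 FPKM under the Gm12840-/- label. Like Ctsl and Ctsc, it was lowest in wild type 1 and Gm12840-/- 3. Pgr stood at 7.54, 3.82 and 6.19 against 1.95, 6.11 and 1.53 FPKM and did not share that order, being highest in wild type 1. With replicate 3 of both labels left out, limma called 3451 genes, 27.6% of those tested. Label and first principal component cannot be told apart in the libraries then left. Among those genes were Lamtor1 (-0.86), Fnip1 (1.55) and Adamts1 (1.88). Of the genes named before them, Fetub (-1.62), Lgmn (-1.10), Naglu (-0.86), Atp6v1g1 (-1.13) and Atp6v1c1 (1.11) were called too (log2 fold changes, limma, adjusted p from 0.0194 to 0.0462).

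The tested genes most like Ctsl over the 6 libraries, by Pearson's r of log2(FPKM + 1), were Akirin2 (0.997), Tspan14 (0.993) and Mark4 (0.993), and 490 genes, 3.92% of those tested, had an r over 0.9. Akirin2 ran from 29.5 to 49.5 FPKM, Tspan14 from 16.5 to 28.8 and Mark4 from 9.32 to 18.8 FPKM. Those most like Cst3 were Fkbp3 (0.999), Prph (0.999) and 7420461P10Rik (0.998), and 2897 genes, 23.2%, had an r over 0.9. On the opposite side, 2498 genes had an r under -0.9 with Cst3. Among the other 9 genes described here, Ctsa, Ctsb, Ctsd, Ctsh and Ctsz were above 0.9 with Cst3, Ctsc had an r of 0.941 with Ctsl, and in the 5 lysosomal lists 21 of 74 were. These r are descriptions over 6 libraries that share the main difference between libraries, and carry no test.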

How the data were processed

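RNA of mouse granulosa cells was sequenced in 6 libraries, grouped by their titles. The deposited values are FPKM, 1 table per library, per the file headers. Per the submitters' processing notes, HISAT2 2.0.5 and the mm10 genome were used. No read counter, annotation release or scaling method is named in the sources used here. FPKM times the deposited gene length gave whole multiples of 1 step in 100% of values (tolerance 0.01 reads), from which reads were recovered. The library size implied by the step was 0.894 to 1.12 times the recovered reads, so FPKM carries a scaling by the authors beyond the read total. Of 54551 gene IDs, 53620 are in GENCODE M21 and 52056 have the same coordinates there, the 10 genes among them. Genes with FPKM over 1 in at least 3 libraries were tested with limma 3.58.1 in R 4.3.3 on log2(FPKM + 1), trend in the prior variance, genotype label as the only term, two-sided, Benjamini-Hochberg over all tested genes, threshold 0.05. A fold change on this scale understates that of low genes. The fit was run on simulated counts with known changes. These counts held no difference shared by many genes between libraries of 1 label, unlike the data, so they do not show the power of the fit here.

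The 10 genes and the gene lists were chosen with earlier results of these data known. Named genes were the 10, the 3 most like Ctsl and Cst3, and per list up to 2 called members, otherwise the most abundant and the one with the smallest p. Cell type markers named singly fall outside this rule and were chosen after their values were seen. Same-numbered libraries were checked for pairing and libraries of 1 label for copies by chi-square (20 reads or more; chi-square over degrees of freedom 36.7 to 392), and no copy was found. Alternatives are given at the end. Promoters are RefSeq's. Figures: matplotlib 3.10.9.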

Additional observations from a re-analysis of the deposited data

How the results depend on the processing

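limma called 0 genes, and 0 of the 10 described here, in the fit of all libraries and under pseudocounts of 0.1 and 0.5, no filter, a filter on mean FPKM over 5, library totals, median-of-ratios factors, limma-voom, the replicate block, protein-coding genes, and each library left out in turn (0 calls each time). With replicate 3 of both labels left out it called 3451 genes and 2 of the 10, Ctsd and Ctsz. With the length slope as a covariate it called 1 gene and 0 of the 10. The 2 other planned count models were not run, since the unit is FPKM, and the filter on mean FPKM gave no value for Ctsk and Ctss. Same-numbered libraries had correlations of deviations of -0.422, -0.672 and -0.894. The first principal component enters these correlations, so they cannot decide whether the libraries are paired. The replicate block moved no call (0 genes). Means when 1 library was left out ran from 0.258 to 0.487 and from 0.218 to 0.469 for the Cst3 ratio, and from 45.0% to 61.1% and from 48.6% to 67.1% for the Ctsl share, in wild type and Gm12840-/- in turn. Principal transcript lengths, added after the data were seen, moved the Ctsl share to 75.2% and 76.7%, since they shorten Ctsl most, and the pairs ordered alike in all libraries from 5 to 4.

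Uncalled log2 fold changes turned their sign as follows; the cause was not tested. With replicate 3 of both labels left out, Ctsl turned to 0.17, M6pr to 0.13, Akirin2 to 0.20, Tspan14 to 0.27 and Mark4 to 0.34. With the length slope, Ctsa turned to 0.068, Ctsc to -0.25, Ctsd to 0.27, Ctsz to 0.042, Cst3 to 0.27, Ctsf to 0.14, Psap to 0.039, Sqstm1 to 0.028, Fkbp3 to 0.079, Prph to 0.12 and 7420461P10Rik to 0.18. With library totals, Psap turned to 0.036, M6pr to 0.020, Sqstm1 to 0.077 and Tspan14 to 0.0086. With median-of-ratios factors, Sqstm1 turned to 0.034. With limma-voom, Sqstm1 turned to 0.029. With 1 library left out, the values ran for Ctsl from -0.22 to 0.071, Ctsa from -0.48 to 0.079, Ctsc from -0.22 to 0.56, Ctsd from -1.03 to 0.23, Ctss from -0.016 to 0.22, Ctsz from -0.92 to 0.085, Cst3 from -0.80 to 0.28, Ctsf from -0.74 to 0.19, Psap from -0.19 to 0.11, M6pr from -0.17 to 0.081, Sqstm1 from -0.17 to 0.14, Akirin2 from -0.25 to 0.086, Tspan14 from -0.23 to 0.12, Mark4 from -0.26 to 0.18, Fkbp3 from -0.31 to 0.085, Prph from -0.42 to 0.13 and 7420461P10Rik from -0.47 to 0.17. Ctsb, Ctsh and Ctsk kept their sign in each setting that tested them. Depth limits Ctsk and Ctss, at 53 to 103 reads.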
